A study of Mus musculus with 18 samples.

Results

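The aminoacyl-tRNA synthetases and the scaffold proteins that hold some of them together were followed here in light zone germinal centre B cells of mice. The set held 39 genes, taken by name from the 30452 genes of the expression tables. They were 20 cytosolic enzymes, 3 scaffold genes and 16 mitochondrial enzymes, the last being those whose names end in 2. All 39 were present in the tables of both time points.

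RNA was sequenced in 18 libraries of germinal centre B cells (B220+ CD38- CD95+) sorted as CD83hi CXCR4lo from popliteal lymph nodes. The hosts were C57BL/6 mice primed with OVA in alum, which 2 weeks later received B1-8hi B cells, whose heavy chain gives binding to the hapten NP. The Ly75+/+ CD45.1 cells, called DECP, made up 15% of the transfer, and the Ly75-/- CD45.1/2 cells, called DECN, the other 85%. Ly75 encodes the endocytic receptor DEC205. Every group came from hosts given NP-OVA in the footpads and, on day 6, anti-DEC205-OVA, an antibody joined to ovalbumin and meant to bring this antigen to cells with DEC205. At 12 h after the antibody there were 3 DECP and 3 DECN libraries. At 24 h there were 4 DECP libraries, 4 DECN libraries and 4 of DECP cells from hosts that also received rapamycin, which blocks the kinase complex mTORC1, at a dose of 2.5 mg/kg together with the antibody. DECN cells of rapamycin-treated hosts were not analysed here. The labels' extraction protocol speaks of 3 biological replicates per condition, whereas the groups of 24 h hold 4 libraries, and whether it covers each of them is not known. The labels give neither age nor sex and do not tie libraries to animals, and the p-values below therefore rest on a spread between libraries that may be in part technical. The hosts kept their own B cells, and the transferred cells were told from these, and DECP from DECN, by CD45 allele in the sort.

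Each synthetase joins an amino acid to its tRNAs, and the products are the building blocks that ribosomes use. The enzymes fall into class I and class II by the fold of the catalytic domain. In animal cells 8 cytosolic enzymes, here Dars, Eprs, Iars, Kars, Lars, Mars, Qars and Rars, are bound in the multisynthetase complex around the scaffold proteins Aimp1, Aimp2 and Eef1e1 (also called AIMP3). Mitochondria use a separate set encoded in the nucleus, except that Kars and Gars each serve both compartments. Many cytosolic synthetase genes are known targets of ATF4, the transcription factor of the amino acid response, and mTORC1 is known to raise ATF4. MYC, which is known to be induced in light zone cells that receive T cell help, binds E-boxes in many genes of protein synthesis.

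Promoters in RefSeq (GRCm38.p6) could be matched for 29 of the 39 genes, and the 250 bases before each start were searched on both strands for 2 motifs. Some of these windows lie partly or wholly in annotated exons. All 250 bases do so in Qars, Ears2 and Fars2, 218 in Yars, 207 in Kars and 202 in Aars, while several windows hold none. The E-box CACGTG, the core bound by MYC and MAX, was present in 3 of the 29, namely Aars, Farsb and Iars. That is 10.3% of the matched genes, against 6.86% of all 27025 genes with a promoter. TGATGNAA, the core shared by sites for ATF4 and C/EBP proteins, was present in 3 of the 29 as well, namely Aars, Gars and Tars. Its share was likewise 10.3%, against 3.91% of all genes. In Aars both motifs were present, 146 and 112 bases before the start and without overlap. All genes with a match were cytosolic enzymes, of which 12 had a promoter. The genes without a matched promoter were not searched. They were Cars, Hars, Lars, Mars, Nars, Rars, Vars, Wars, Hars2 and Pars2. Neither motif was found in the 14 mitochondrial or the 3 scaffold genes with one, which says only that these letters are not in those windows. The windows of the 4 genes whose matches lie outside annotated exons are shown 5′ to 3′ because they hold the letters counted above. The motif is in capitals. In Gars and Tars it reads on the opposite strand. A match is a description of the sequence, not a sign that a factor binds there.
Farsb, chr1:78488898-78489017, minus strand: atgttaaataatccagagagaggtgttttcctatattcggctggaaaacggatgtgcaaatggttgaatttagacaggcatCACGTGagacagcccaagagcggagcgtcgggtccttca
Iars, chr13:49681980-49682099, plus strand: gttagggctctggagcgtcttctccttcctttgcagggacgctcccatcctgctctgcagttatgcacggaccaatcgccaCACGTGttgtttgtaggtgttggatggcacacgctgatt
Gars, chr6:55037881-55038000, plus strand: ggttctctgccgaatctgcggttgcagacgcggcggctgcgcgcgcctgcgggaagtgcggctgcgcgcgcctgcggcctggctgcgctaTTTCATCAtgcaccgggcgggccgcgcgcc
Tars, chr15:11399666-11399785, minus strand: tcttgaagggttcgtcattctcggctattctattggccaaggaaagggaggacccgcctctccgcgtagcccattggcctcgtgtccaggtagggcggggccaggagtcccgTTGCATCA
The first base of the motif lay 39 bases before the start in Farsb, 69 in Iars, 30 in Gars and 15 in Tars.

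The labels were checked on Ly75 and on cell type markers. Ly75 ranged from 26.0 to 39.6 TPM (a share of all transcripts, scaled to transcript length) in DECP and from 8.53 to 10.2 TPM in DECN at 12 h. At 24 h it ranged from 10.3 to 18.1 TPM in DECP, from 2.76 to 6.66 TPM in DECN and from 8.66 to 18.9 TPM in DECP with rapamycin, so Ly75 RNA was lower but not at 0 in the knockout. The B cell genes Cd79a, Cd79b, Ms4a1 and Pax5 and the germinal centre genes Bcl6 and S1pr2 were detected in every library. The summed level of 9 macrophage genes was 671 to 836 TPM in DECP and 1274 to 1660 TPM in DECN at 12 h. At 24 h the macrophage sum was 411 to 621 TPM in DECP, 1030 to 1128 TPM in DECN and 618 to 1189 TPM with rapamycin. Apoe made up most of it. Of the macrophage genes 3 of 9 passed the filter at 12 h and 2 of 9 at 24 h, and Apoe alone was called lower in DECP at each time and higher with rapamycin than without it, while C1qa, C1qb, C1qc and Adgre1 were at 0 in all DECP libraries at 24 h, with and without rapamycin. At 24 h the B cell genes Cd79a, Cd79b and Ms4a1 fell in DECP against DECN, and Cd79a and Cd79b rose with rapamycin. The sum of 6 T cell genes at 24 h was 37.0 to 61.6 TPM in DECP, 18.7 to 21.6 TPM in DECN and 30.9 to 50.2 TPM with rapamycin, mostly Cd3d, which rose against DECN, with Cd3g at 0 in some libraries of each group. Group means of the other T cell genes lay lower in DECP than in DECN for Cd3e (0.71 and 1.14 TPM), Cd4 (1.43 and 2.22 TPM), Cd8a (0.46 and 0.70 TPM) and Cd28 (0.18 and 0.40 TPM), and higher for Cd3g (0.96 and 0.23 TPM). The part of these markers in the results below was not tested. In bulk libraries fewer cells of a type and less RNA per cell cannot be told apart.

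All 39 genes passed the filter on low values (at least 1 TPM in as many libraries as the smallest group) in every comparison. By their medians the cytosolic enzymes were expressed more highly than the mitochondrial ones. In DECN at 12 h the group means of the 20 cytosolic enzymes ran from 11.9 TPM for Wars to 1159 TPM for Kars, with a median of 60.6 TPM. The 16 mitochondrial enzymes there ran from 2.04 TPM for Aars2 to 238 TPM for Lars2, with a median of 6.95 TPM. Lars2, which charges mitochondrial leucine tRNA, was the highest mitochondrial gene in every group. In DECN at 24 h the cytosolic median was 51.3 TPM and the mitochondrial median 8.68 TPM, and 8 of the 16 mitochondrial genes had a mean under 10 TPM, where values are less precise. The heat map of all genes by library shows where levels lay above or below the DECN mean.

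**Figure D1:**
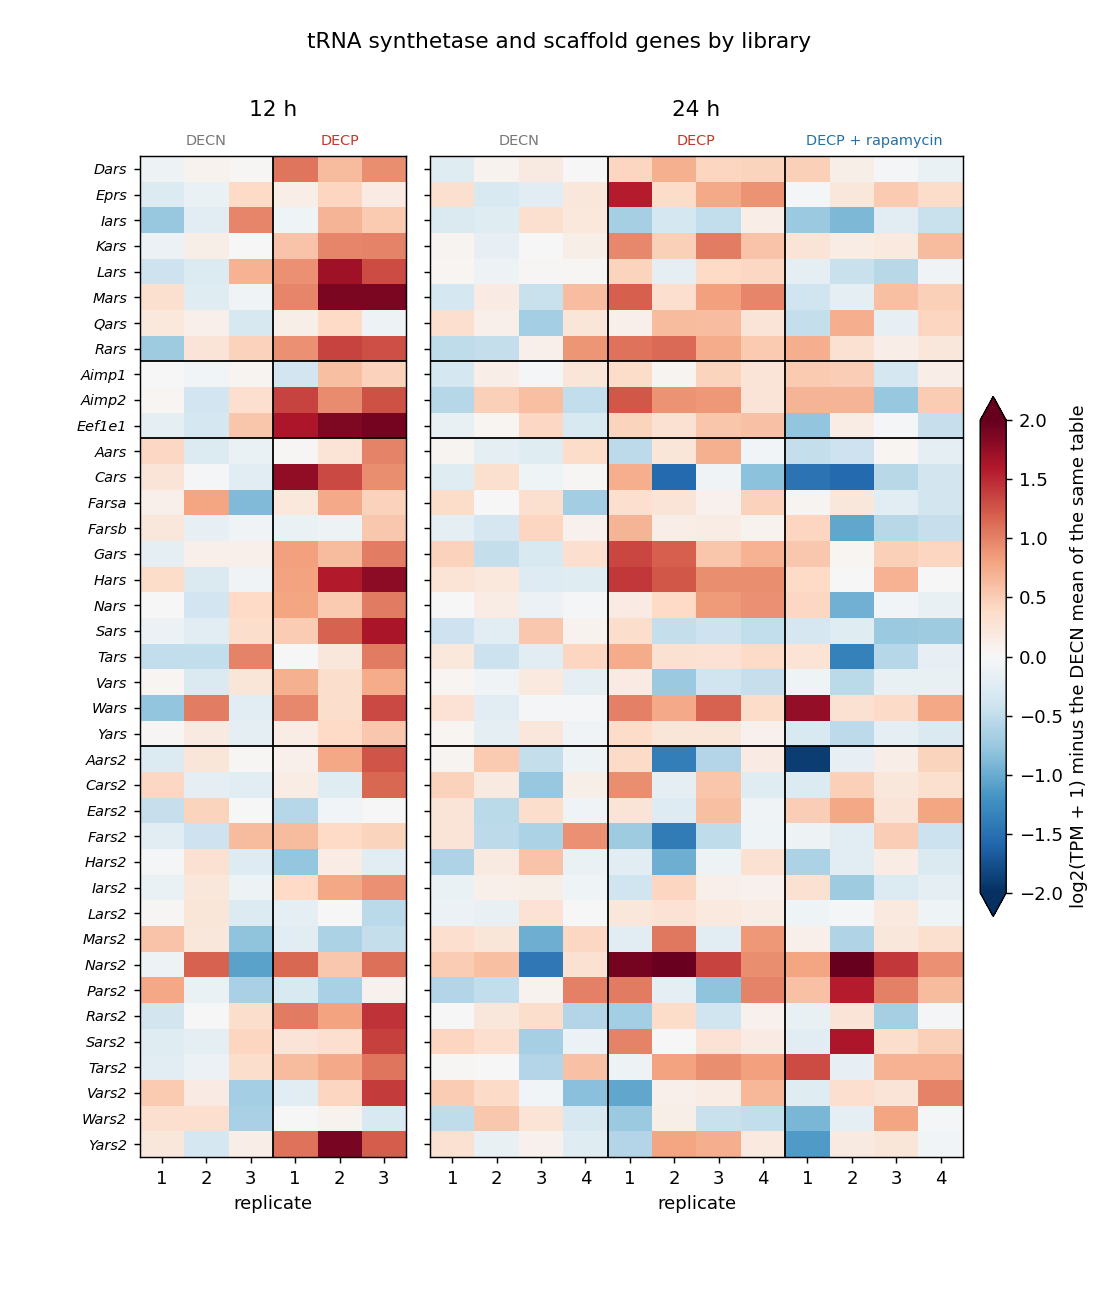
Heat map of the 39 genes (rows: enzymes of the multisynthetase complex, scaffold genes, other cytosolic enzymes, mitochondrial enzymes) in 18 libraries (columns, by replicate number), coloured by log2(TPM + 1) minus the DECN mean of the same table, with colours ending at plus and minus 2. At 12 h the DECP columns are mostly red in the upper 3 blocks, at 24 h less so, and the columns with rapamycin are paler again.

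At 12 h the cytosolic synthetases stood higher in DECP than in DECN, with 3 of the 39 genes called, the scaffold gene Eef1e1 and the complex enzymes Kars and Mars. In limma fits across all genes 388 of 13429, 2.89%, passed an adjusted p under 0.05, with 1.84% rising, and none of the 39 genes fell, against 1.05% of all genes. At an unadjusted p under 0.05 the count was 17 higher and 0 lower, where 10.8% of all genes were higher and 9.09% lower. In 17 genes every DECP library lay above every DECN library, and in 0 every one lay below, against 12.6% and 13.7% of all genes. All 20 cytosolic enzymes had a log2 change above 0, as had 45.8% of all genes, and their median was 0.81 on the log2(TPM + 1) scale, against -0.05 over all genes tested. Summed over the 20 enzymes the level was 2621 ± 184 TPM (SD, n = 3) in DECN and 4195 ± 521 TPM (SD, n = 3) in DECP, of which Kars made up the largest part.

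Among the complex enzymes Kars, lysyl-tRNA synthetase, stood at 1061, 1250 and 1165 TPM in the DECN libraries and at 1717, 2285 and 2289 TPM in the DECP libraries, in replicate order. The groups did not overlap, and Kars rose by 0.85 on the log2 scale (SE 0.16, adjusted p = 0.0412 by limma). Mars, methionyl-tRNA synthetase, which also charges the initiator tRNA, stood at 24.8, 16.4 and 18.5 TPM in DECN and at 39.4, 75.1 and 75.3 TPM in DECP. The lowest DECP library was well below the other DECP libraries but above all DECN libraries, and Mars rose by 1.58 (SE 0.32, adjusted p = 0.0498). Lars, leucyl-tRNA synthetase, was at 20.4 to 45.2 TPM in DECN and 52.8 to 91.4 TPM in DECP, a log2 change of 1.30 (SE 0.36) that did not pass the threshold (adjusted p = 0.101). Over the 8 complex enzymes the log2 changes ran from 0.14 to 1.58, with a median of 0.86. Qars and Eprs were at the low end. Qars, glutaminyl-tRNA synthetase, changed by 0.14 (95% interval -0.36 to 0.63). Eprs, the fused glutamyl- and prolyl-tRNA synthetase, changed by 0.24 (95% interval -0.25 to 0.74).

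The scaffold gene Eef1e1 had the largest change of the 39 genes. It stood at 10.3, 9.21 and 18.2 TPM in DECN and at 39.2, 46.5 and 48.3 TPM in DECP. The groups lay far apart, and Eef1e1 rose by 1.80 (SE 0.30, adjusted p = 0.0319, limma), which is 3.49-fold on the TPM + 1 scale. Aimp2, the scaffold protein at the centre of the complex, stood at 24.2, 17.9 and 30.1 TPM in DECN and at 61.5, 46.0 and 58.2 TPM in DECP. The groups did not overlap, but the change of 1.19 (SE 0.26) missed the threshold (adjusted p = 0.0596). Of the 31-base words of Aimp2 transcripts 29.5% also occur in other genes, chiefly its neighbour Eif2ak1, so its level is uncertain. Aimp1, the third scaffold gene, was at 46.5 to 50.1 TPM in DECN and 36.7 to 74.2 TPM in DECP, with overlapping groups and a change of 0.22 (SE 0.29).

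No cytosolic enzyme outside the complex passed the threshold at 12 h. The median log2 change of these 12 was 0.70. In 6 of the 12 every DECP library lay above every DECN library, against 12.6% of all genes. Hars, histidyl-tRNA synthetase, stood at 26.4, 16.3 and 19.1 TPM in DECN and at 36.1, 63.0 and 72.0 TPM in DECP. Its change was 1.39 (SE 0.33, adjusted p = 0.0675, limma). Cars, cysteinyl-tRNA synthetase, stood at 15.7, 12.5 and 10.97 TPM in DECN and at 46.3, 33.7 and 25.5 TPM in DECP, a change of 1.34 (SE 0.30, adjusted p = 0.0596). Gars, glycyl-tRNA synthetase, stood at 52.2, 64.3 and 64.5 TPM in DECN and at 106, 93.8 and 124 TPM in DECP. Its groups did not overlap, and its change was 0.83 (SE 0.20, adjusted p = 0.0738). Wars, tryptophanyl-tRNA synthetase, varied from 5.45 to 21.6 TPM within DECN alone, and its groups overlapped. Of the genes with an E-box in the window, Farsb changed by 0.10 (SE 0.25), Iars by 0.37 (SE 0.45) and Aars by 0.43 (SE 0.31), none past the threshold. Mars, Hars, Cars and Lars, with larger changes, had no matched promoter and were not searched. Eef1e1, Yars2, Aimp2 and Kars, also with larger changes, were searched and held no E-box in the window.

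The mitochondrial enzymes held no called gene at 12 h by limma, where 2.89% of all genes were called. At an unadjusted p under 0.05, 4 of the 16 were higher and 0 lower, against 10.8% and 9.09% of all genes. The median log2 change of the 16 was 0.51, and 10 of them were above 0, as were 45.8% of all genes. The range ran from -0.44 to 1.40, so the mitochondrial enzymes varied more in sign than the cytosolic enzymes. The median was 0.21 without DECP replicate 3 and 0.32 without DECN replicate 3. Whether the cytosolic and mitochondrial classes differ was not tested. Yars2, mitochondrial tyrosyl-tRNA synthetase, had the largest change, with 10.1, 6.44 and 9.41 TPM in DECN and 19.3, 34.5 and 21.0 TPM in DECP. The groups did not overlap, and the change of 1.40 (SE 0.32) had an adjusted p of 0.0647 by limma. Lars2, the most abundant mitochondrial gene, overlapped between the groups, with 196 to 280 TPM in DECN and 161 to 236 TPM in DECP. The summed level of the 16 genes was 438 ± 62.9 TPM (SD, n = 3) in DECN and 466 ± 41.1 TPM (SD, n = 3) in DECP, a difference smaller than either spread. Lars2 was the largest part of this sum, with means of 238.1 TPM in DECN and 201.5 TPM in DECP. The sum therefore says little about the other mitochondrial genes.

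The 12 h calls were close to the threshold. Without DECP replicate 1, 2 or 3, or without DECN replicate 1 or 2, 0 of the 39 genes passed, and without DECN replicate 3 only Eef1e1 did (adjusted p = 0.045, limma). Of all genes, 0, 53 and 64 passed without DECP replicate 1, 2 or 3, and 0, 1 and 91 without DECN replicate 1, 2 or 3. Over those 6 fits the change of Eef1e1 stayed between 1.62 and 2.08, that of Kars between 0.78 and 0.98 and that of Mars between 1.43 and 1.89, with adjusted p up to 0.121, 0.146 and 0.159 in that order. Without the filter or without the intensity trend 0 of the 39 were called, and with a filter of 5 TPM 8 of the 35 tested were. Of all genes 30, 103 and 595 were called in those fits, in that order.

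**Figure D2:**
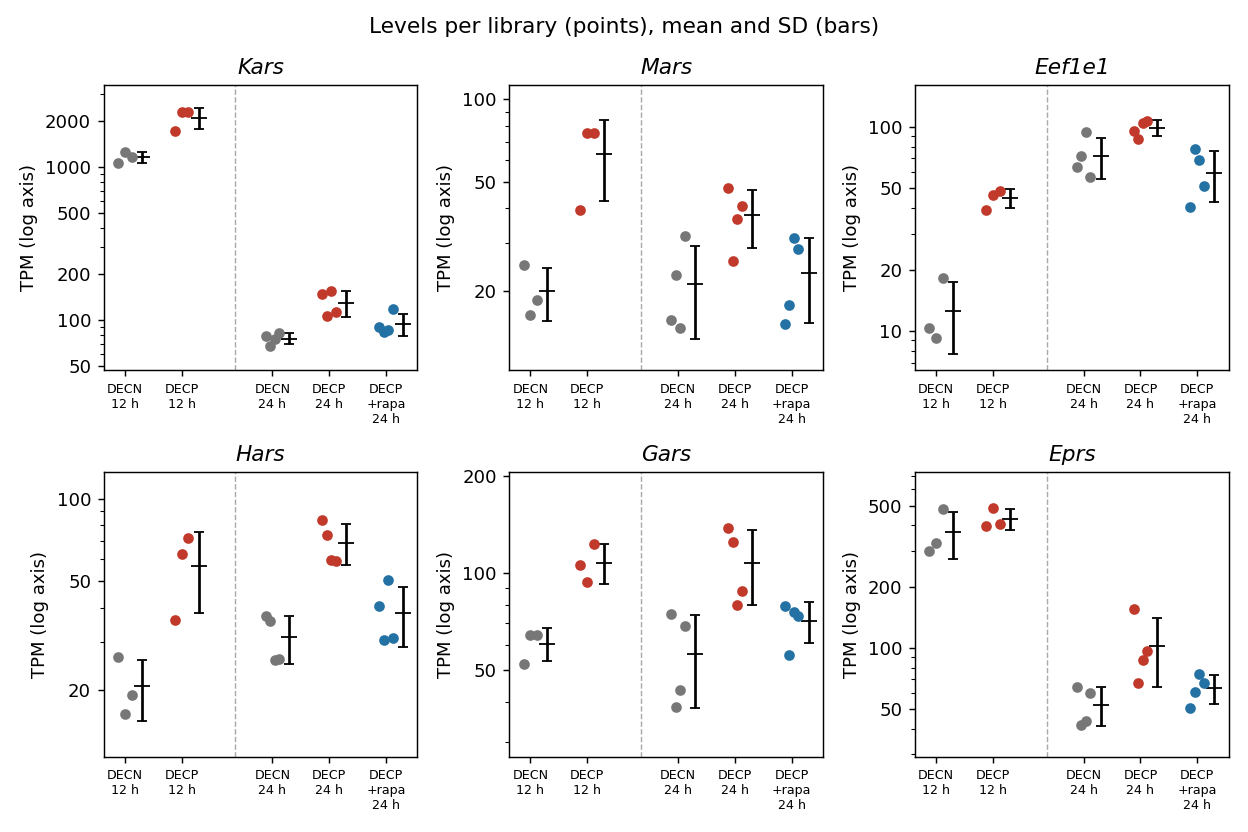
Level of 6 genes (TPM, log axis) in each library (points) by group, with the mean and SD as bars. The broken line separates the tables of 12 h and 24 h, which were processed apart. Kars, Mars, Eef1e1, Hars and Gars have no overlap between DECP and DECN at 12 h, whereas Eprs does, and Kars, Hars, Gars and Eprs have none at 24 h.

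At 24 h, 3 of the 39 genes rose in DECP against DECN by limma, the cytosolic enzymes Hars, Kars and Gars. Over all genes 517 of 12783, 4.04%, passed the threshold, 2.72% rising and 1.32% falling, and 0 of the 39 fell. At an unadjusted p under 0.05 the count was 12 higher and 0 lower, against 10.3% and 7.42% of all genes. In 8 genes the groups did not overlap with DECP higher, where 6.81% of all genes did so, and in 0 with DECP lower, against 4.7%. The median log2 change was 0.42 over the 20 cytosolic enzymes, of which 16 were above 0 (as were 50.1% of all genes), and 0.00 over all genes tested. The summed cytosolic level was 1063 ± 75.9 TPM (SD, n = 4) in DECN and 1454 ± 146 TPM (SD, n = 4) in DECP.

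Hars stood at 37.4, 35.7, 25.7 and 26.0 TPM in DECN and at 83.7, 73.9, 59.6 and 59.2 TPM in DECP at 24 h. The groups did not overlap, and Hars rose by 1.13 (SE 0.21, adjusted p = 0.0108, limma). Hars and Hars2, which overlap at their 5′ ends on opposite strands of chromosome 18, share 165 of the 31-base words of their transcripts. In all, 7.86% of the words of Hars are shared. Reads of the shared words cannot be told apart in libraries that do not mark strand. Hars2 had a change of -0.25 (SE 0.31) that did not pass the threshold. Kars stood at 78.3, 67.5, 75.0 and 82.0 TPM in DECN and at 149, 106, 154 and 112 TPM in DECP. The groups did not overlap, and Kars rose by 0.76 (SE 0.16, adjusted p = 0.0208). Gars stood at 74.7, 38.5, 43.5 and 68.6 TPM in DECN and at 138, 125, 79.8 and 87.9 TPM in DECP. The highest DECN library came close to the lowest DECP library, and Gars rose by 0.94 (SE 0.24, adjusted p = 0.0494).

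Of the other complex enzymes Eprs stood at 64.4, 41.7, 43.8 and 60.3 TPM in DECN and at 155, 67.2, 87.6 and 96.7 TPM in DECP at 24 h. Its groups did not overlap, and its change of 0.90 (SE 0.24) missed the threshold (adjusted p = 0.0576, limma). Rars, arginyl-tRNA synthetase, changed by 0.87 (SE 0.28, adjusted p = 0.112), with 34.3 to 91.6 TPM in DECN and 71.04 to 109.5 TPM in DECP. Mars changed by 0.83 (SE 0.30, adjusted p = 0.163), and its groups overlapped, unlike at 12 h. Eef1e1 changed by 0.47 (SE 0.21, adjusted p = 0.266), with 57.1 to 94.5 TPM in DECN and 87.4 to 107 TPM in DECP, so that the groups overlapped. Iars, isoleucyl-tRNA synthetase, was the 1 complex enzyme with a change below 0, at -0.34 (SE 0.27).

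Outside the complex Wars stood at 9.38, 6.27, 7.37 and 7.24 TPM in DECN and at 16.1, 13.4, 18.2 and 9.97 TPM in DECP at 24 h, without overlap. Its change of 0.83 (SE 0.33) did not pass the threshold (adjusted p = 0.196, limma). Cars, Sars and Vars, which were higher in every DECP library at 12 h, had changes below 0 at 24 h, of -0.43 (SE 0.43), -0.26 (SE 0.24) and -0.36 (SE 0.20), none past the threshold. The mitochondrial enzymes had a median of 0.17 and no called gene, where 4.04% of all genes were called. At an unadjusted p under 0.05 by limma 1 of them was higher and 0 lower, against 10.3% and 7.42% of all genes. Nars2, mitochondrial asparaginyl-tRNA synthetase, had the largest change of the 39 genes at 24 h, with 7.62, 8.19, 1.26 and 6.50 TPM in DECN and 21.9, 22.8, 14.5 and 10.5 TPM in DECP. The lowest DECN library was at 1.26 TPM, and the change of 1.55 (SE 0.48) had an adjusted p of 0.101. Reads of Nars2 and of the antisense gene C230038L03Rik, which share 254 words, cannot be told apart in libraries that do not mark strand.

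The call of Hars at 24 h held in each of the 12 fits without a library, with changes from 1.03 to 1.22. Kars was lost without DECP replicate 1 (adjusted p = 0.0711, limma), DECP replicate 3 (0.0714) or DECN replicate 2 (0.0654), and Gars was kept only without DECN replicate 1 (0.04) or without rapamycin replicate 2 (0.0491), its largest adjusted p being 0.145 without DECP replicate 1. The labels of the 24 h libraries give 2 second index sequences, spread over the 3 groups. Within the libraries of a single index Hars changed by 0.69 (SE 0.27) and 1.57 (SE 0.32), Kars by 0.85 (SE 0.24) and 0.67 (SE 0.28) and Gars by 0.63 (SE 0.31) and 1.25 (SE 0.34), with 0 genes of the 39 called in either fit of fewer libraries. Of all genes 12 and 0 were called in these 2 fits. With the second index as a term of the model Hars, Rars and Kars were called and Gars was not (adjusted p = 0.0566). With quantile normalization or without the intensity trend Hars alone of the 39 was called, where 428 and 182 of all genes were.

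**Figure D3:**
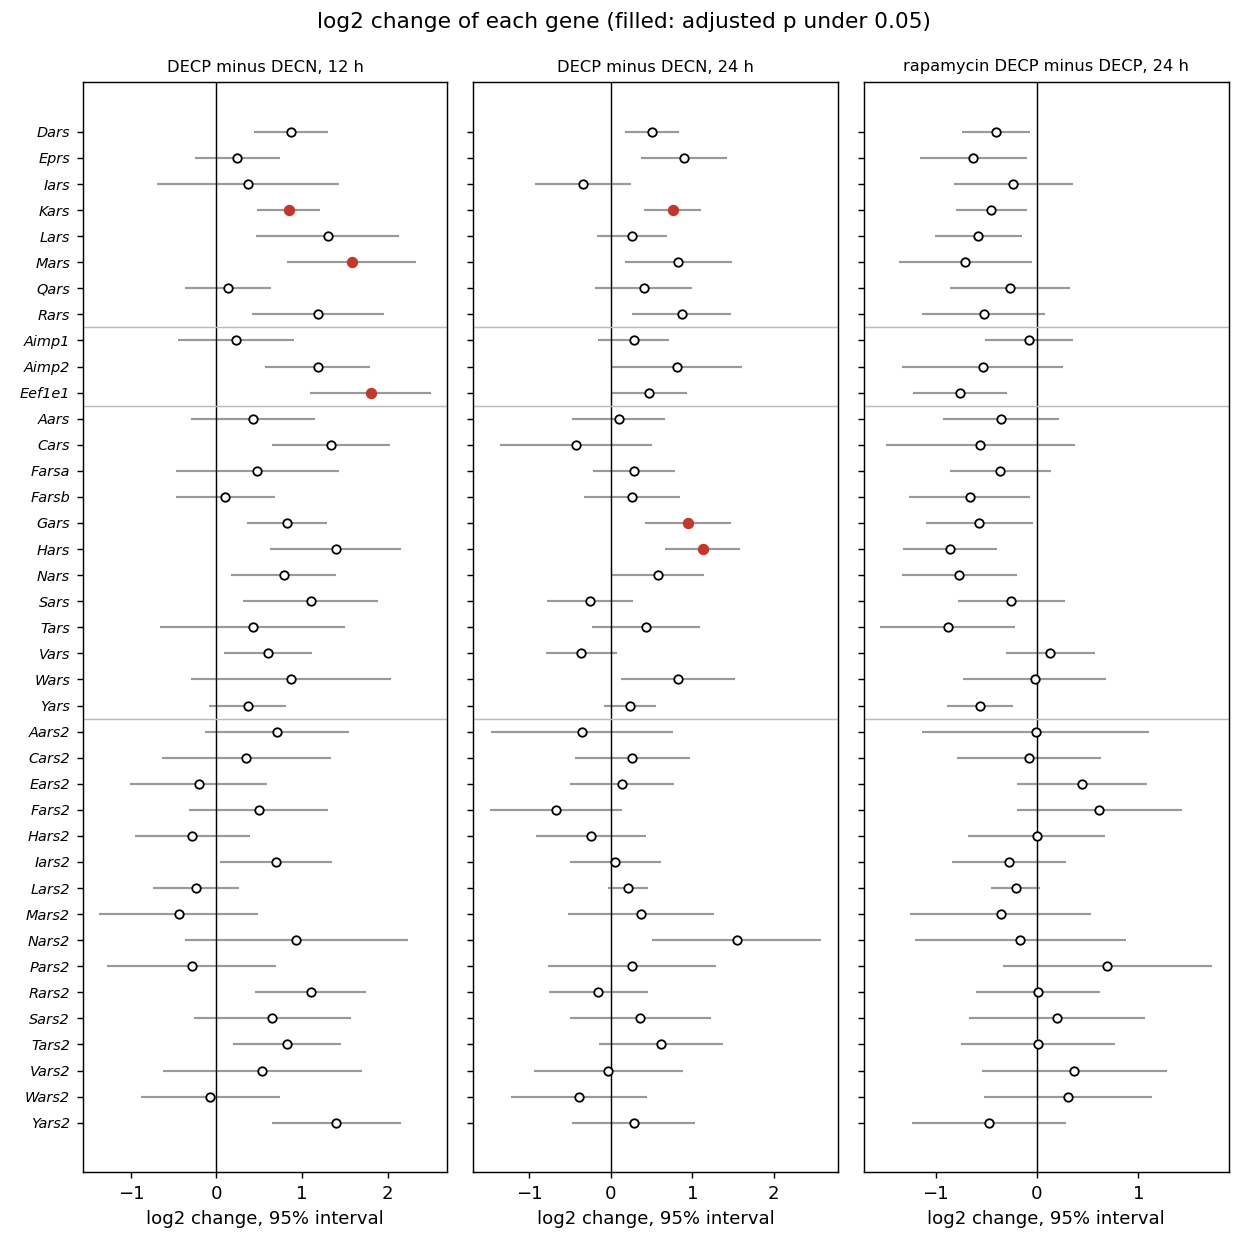
log2 change on the log2(TPM + 1) scale (points) with its 95% interval (lines) for each of the 39 genes in 3 comparisons, with genes of an adjusted p under 0.05 filled. Filled points are Kars, Mars and Eef1e1 at 12 h and Kars, Gars and Hars at 24 h, and none in the rapamycin comparison, where most cytosolic enzymes lie below 0.

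With rapamycin the cytosolic synthetases of DECP cells at 24 h stood lower than without it, but none of the 39 genes passed the threshold, which 2.18% of all genes did, 1.53% falling and 0.657% rising. At an unadjusted p under 0.05 by limma 12 genes were lower and 0 higher, against 8.32% and 5.58% of all genes. In 5 genes every library with rapamycin lay below every DECP library, against 5.33% of all genes, and in 0 above, against 3.63%. Of the 20 cytosolic enzymes 19 had a change below 0, where 52% of all genes were above it, Vars alone being above at 0.13 (SE 0.20), and their median was -0.54, against 0.02 over all genes. The 3 scaffold genes had a median of -0.54. The 16 mitochondrial enzymes had a median of 0.00, with 8 above and 8 below 0. The summed cytosolic level with rapamycin was 1044 ± 74.6 TPM (SD, n = 4), and the summed mitochondrial level was 576 ± 51.7 TPM (SD, n = 4), against 636 ± 25.5 TPM (SD, n = 4) without it. Lars2 was the largest part of the mitochondrial sums, with means of 371.2 TPM with rapamycin and 428.1 TPM without it. This comparison shares its DECP libraries with that of DECP and DECN at 24 h, so values of one are not independent of the other.

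Hars was nearest to a call, with 40.6, 30.6, 50.3 and 30.95 TPM with rapamycin, all below the DECP libraries. Its change was -0.86 (SE 0.21, adjusted p = 0.0584, limma). Yars, tyrosyl-tRNA synthetase, stood at 45.3, 38.7, 49.4 and 46.1 TPM with rapamycin and at 72.8, 66.8, 67.0 and 60.1 TPM without it. The Yars groups did not overlap, and its change was -0.56 (SE 0.15, adjusted p = 0.0772). Eef1e1 stood at 40.6, 78.1, 68.5 and 51.0 TPM with rapamycin and at 95.9, 87.4, 104 and 107 TPM without it, a change of -0.76 (SE 0.21, adjusted p = 0.0956). Tars, threonyl-tRNA synthetase, had the largest change at -0.88 (SE 0.31, adjusted p = 0.19), with 50.4, 15.7, 27.4 and 36.9 TPM with rapamycin and 70.1, 51.2, 50.6 and 54.5 TPM without it. Gars, the last of the 5 genes without overlap, stood at 79.4, 55.8, 75.8 and 73.6 TPM with rapamycin and changed by -0.57 (SE 0.24, adjusted p = 0.311). Kars stood at 90.5, 83.9, 86.8 and 117 TPM with rapamycin, overlapped with the DECP libraries and changed by -0.45 (SE 0.16, adjusted p = 0.212). Aars, which with Gars and Tars holds TGATGNAA in its window, changed by -0.35 (SE 0.27, adjusted p = 0.629). Nars changed by -0.77 (SE 0.26, adjusted p = 0.184) and Mars by -0.71 (SE 0.30, adjusted p = 0.312).

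Set against DECN at 24 h, DECP cells with rapamycin showed no called gene among the 39, where 1.31% of all genes were called, 0.774% rising and 0.532% falling. At an unadjusted p under 0.05 by limma 2 were higher, Nars2 at 1.38 (SE 0.48) and Wars at 0.81 (SE 0.33), and 2 lower, Cars at -0.99 (SE 0.43) and Yars at -0.33 (SE 0.15), against 6.89% and 6.42% of all genes. The groups did not overlap for 3 genes with rapamycin higher and 1 lower, where 4.62% and 3.94% of all genes did so. Pars2, mitochondrial prolyl-tRNA synthetase, changed by 0.95 (SE 0.48, adjusted p = 0.425) and Tars2, mitochondrial threonyl-tRNA synthetase, by 0.63 (SE 0.35, adjusted p = 0.488). The median over the 20 cytosolic enzymes was -0.13, with 9 above 0 (52% of all genes were), and over the mitochondrial enzymes 0.01. Nars2 stood at 9.42, 31.4, 15.1 and 10.4 TPM with rapamycin, above every DECN library, and Wars at 27.8, 9.54, 10.1 and 13.5 TPM. For Hars the 95% interval of the difference ran from -0.19 to 0.73, for Kars from -0.04 to 0.66 and for Gars from -0.15 to 0.90. Without rapamycin, against the same DECN libraries, their changes were 1.13, 0.76 and 0.94 in that order.

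**Figure D4:**
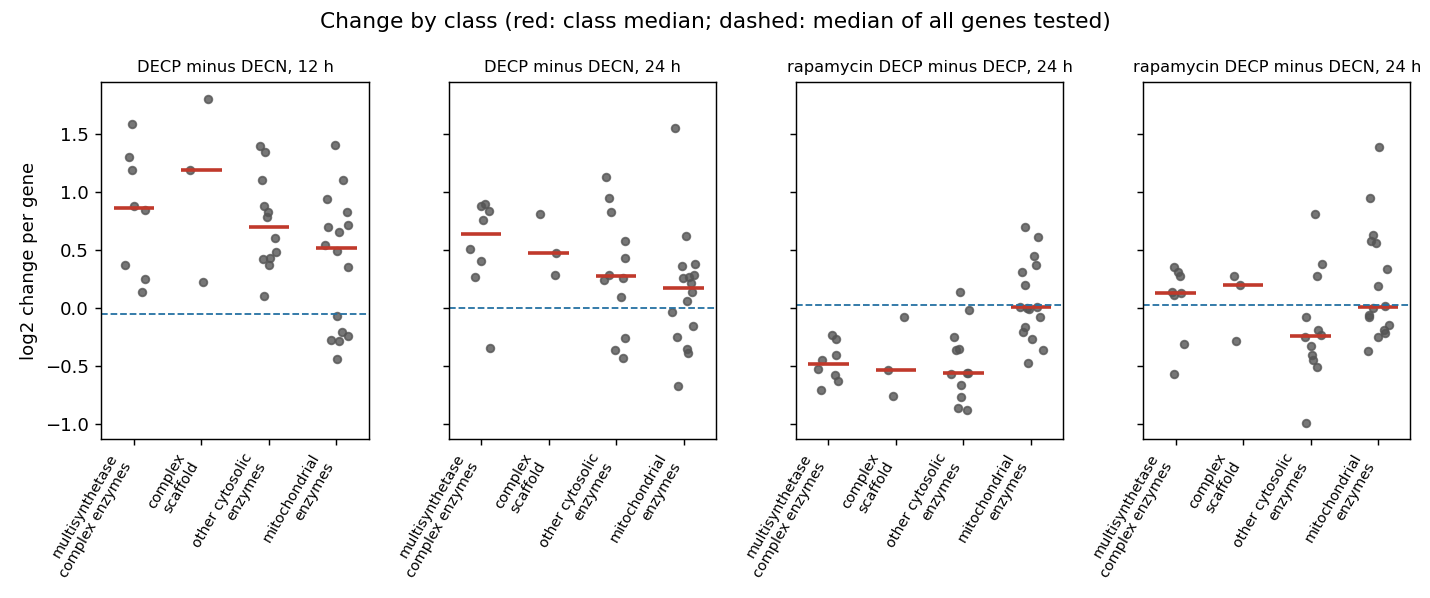
log2 change of each gene (points) by class in 4 comparisons, with the class median (red bar) and the median of all genes tested (broken line), on the log2(TPM + 1) scale. The medians of the cytosolic classes lie above the line in DECP against DECN and below it in rapamycin against DECP, and the mitochondrial medians lie close to the line in the rapamycin comparisons.

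The difference between DECP and DECN was compared between 12 h and 24 h in a fit of all 18 libraries. None of the 39 genes differed at an adjusted p under 0.05, where 117 of 15085 genes, 0.776%, did, 0.583% with the higher value of DECP minus DECN at 12 h and 0.192% at 24 h. That value was higher at 12 h in 27 of the 39 and in 48.2% of all genes. At an unadjusted p under 0.05 by limma 7 genes had the higher value at 12 h and 1, Lars2, at 24 h, against 5.49% and 4.74% of all genes. Cars had the largest, its difference at 12 h exceeding that at 24 h by 1.77 (SE 0.60, adjusted p = 0.254). Sars, seryl-tRNA synthetase, followed with 1.36 (SE 0.41, adjusted p = 0.177) and Eef1e1 with 1.33 (SE 0.35, adjusted p = 0.105). Rars2, mitochondrial arginyl-tRNA synthetase, came next with 1.26 (SE 0.42, adjusted p = 0.238), then Fars2, mitochondrial phenylalanyl-tRNA synthetase, with 1.17 (SE 0.55, adjusted p = 0.49). Across the 20 cytosolic enzymes the log2 changes at 12 h and 24 h had a Pearson correlation of 0.20 (Spearman 0.24), across 11848 genes tested at both times 0.36. Genes are not independent replicates, and no library is shared between the times.

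The authors' deposited tables, made with a tool not given in the sources used here, list more of these genes as changed. At an adjusted p under 0.05 the authors' deposited table for 12 h lists 15 of the 39 genes as higher in DECP and 0 as lower, where 7.21% of genes with an adjusted p are listed higher and 3.51% lower. Of these, 9 are cytosolic enzymes (Cars, Dars, Gars, Hars, Kars, Lars, Mars, Rars and Sars), 2 are the scaffold genes Aimp2 and Eef1e1, and 4 are mitochondrial (Iars2, Rars2, Tars2 and Yars2). For 24 h the authors' deposited table lists 5 as higher, Dars, Eprs, Gars, Hars and Kars, where 5.2% of genes are, and 0 as lower, where 3.9% are. For rapamycin against DECP the authors' deposited table lists 4 as lower, Hars at -0.82, Lars at -0.60, Yars at -0.58 and Eef1e1 at -0.69 on the log2 scale, where 5.5% of genes are. It lists 0 as higher there, where 2.08% of genes are. The log2 values of these 4 genes are estimates shrunken toward 0, unlike the changes given in the paragraphs above. For rapamycin against DECN the authors' deposited table lists 0 of the 39 in either direction, where 1.84% of genes are listed higher and 2.53% lower.

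Other genes of the pathway were counted from lists. Of 6 genes that deliver aminoacyl-tRNA to ribosomes, 4 rose in DECP at 12 h by limma, as did 1.84% of all genes. Eef1a1, the elongation factor that carries aminoacyl-tRNA, rose by 0.86 (SE 0.17, adjusted p = 0.0446). Its exchange factor subunits rose more, Eef1b2 by 1.56 (SE 0.14, adjusted p = 0.0125), Eef1d by 1.99 (SE 0.27, adjusted p = 0.0183) and Eef1g by 1.24 (SE 0.19, adjusted p = 0.0268). At 24 h 2 of the 6 rose, where 2.72% of all genes did, Eef1b2 by 0.51 (SE 0.09, adjusted p = 0.00672) and Eef1g by 0.81 (SE 0.14, adjusted p = 0.0063). With rapamycin no delivery gene was called lower than in DECP. Eef1a1 rose there by 0.36 (SE 0.075, adjusted p = 0.0255), where 0.657% of all genes rose. Against DECN 3 of the 6 rose with rapamycin, as did 0.774% of all genes, Eef1b2 by 0.54 (SE 0.09, adjusted p = 0.0136), Eef1a1 by 0.51 (SE 0.075, adjusted p = 0.0111) and Eef1g by 0.73 (SE 0.14, adjusted p = 0.0278). The differences of Eef1b2 and Eef1d between DECP and DECN were larger at 12 h than at 24 h (0.583% of all genes), by 1.06 (SE 0.14, adjusted p = 0.0016) and 1.40 (SE 0.31, adjusted p = 0.0456).

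Of 24 genes of tRNA maturation, modification and export, 3 rose at 12 h and 0 fell, against 1.84% and 1.05% of all genes. These were Elac2, which trims the 3′ end of tRNA precursors, at 1.30 (SE 0.26, adjusted p = 0.0498, limma), the tRNA methyltransferase Nsun2 at 1.33 (SE 0.22, adjusted p = 0.0311), and Wdr4, a subunit of a tRNA methyltransferase, at 1.42 (SE 0.25, adjusted p = 0.0369). The median of the 24 was 0.76, and none was called in any other comparison, where at an unadjusted p under 0.05 6 were higher at 24 h (10.3% of all genes), 4 lower with rapamycin than without it (8.32%) and 2 higher with rapamycin than in DECN (6.89%). Of 21 measured genes of the ATF4 and amino acid response, 3 rose at 12 h and 0 fell, against the same shares, with a median of 0.25. The list was mixed, with 12 changes above 0 and 9 below, down to -1.06. At an unadjusted p under 0.05 by limma 8 were higher and 1 lower (10.8% and 9.09% of all genes). The groups did not overlap for 8 with DECP higher and 3 with DECP lower (12.6% and 13.7%). The serine and glycine enzymes Shmt2 and Phgdh rose by 2.23 (SE 0.20, adjusted p = 0.0125) and 1.43 (SE 0.25, adjusted p = 0.0369), and the amino acid transporter Slc7a5 rose by 1.48 (SE 0.27, adjusted p = 0.0374). Without DECP replicate 1 or without DECN replicate 1 no gene of the whole table passed at 12 h, so the 12 h calls of these lists are lost there too. At 24 h none of this list was called between DECP and DECN, with 6 higher and 1 lower at an unadjusted p under 0.05 (10.3% and 7.42% of all genes), and with rapamycin Slc7a5 fell by 1.25 (SE 0.25, adjusted p = 0.0214) against DECP, the 1 call of 21 genes where 1.53% of all genes fell. Of 11 further genes of aminoacylation and its proofreading, none was called in any comparison, and at an unadjusted p under 0.05 the highest count in a comparison was 2 genes, in DECP against DECN at 24 h (both higher, as were 10.3% of all genes) and in rapamycin against DECN (1 higher and 1 lower, against 6.89% and 6.42% of all genes).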

How the data were processed

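RNA-seq of 18 libraries was quantified with kallisto 0.43.0 on GRCm38, per the submitters' processing notes. kallisto divides reads shared between similar transcripts by an estimate. Libraries were made with Nextera XT, which does not mark strand, per the labels' protocols. The authors deposited a score per gene and library that is TPM plus 1 (named so per the file headers, and no value lies below 1), in a table of 6 libraries for 12 h and a table of 12 libraries for 24 h, and 1 was subtracted. The tables were normalized apart, so comparisons were made within each. The authors also deposited 4 tables of comparisons with the mean signal (normalized counts) of each group, a log2 fold change with its error, and a p-value and adjusted p-value, per the file headers. These were used for comparison only. TPM keeps no depth, which is therefore unknown. Per library 11128 to 13597 genes had at least 1 TPM, and Pearson correlations of log2 values between replicates were 0.953 to 0.974.

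Genes with at least 1 TPM in as many libraries as the smallest group were tested on log2(TPM + 1) with limma 3.58.1 (R 4.3.3), with an intensity trend, empirical Bayes, two-sided tests, Benjamini-Hochberg adjustment over all genes and a threshold of 0.05. "Rose" and "fell" are used of genes past it. Fold changes on this scale understate those of low genes. The 12 h fit used 6 libraries, the 24 h fit all 12 in 1 model, and the difference between times all 18. The pipeline was tested on simulated data. Shared words were counted as 31-base words of GENCODE transcripts, and promoters came from RefSeq (GRCm38.p6). After Aimp2 the largest shares of words also present in other genes were 23.6% in Iars2, 14.7% in Iars and 14.4% in Aars. The levels of these genes are less certain for that reason. Plots used matplotlib 3.10.9 in Python 3.11.15.

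The genes and lists were chosen with earlier results of these data known. Named with values were all genes past the threshold, the 5 largest other changes per comparison, Gars, Kars, Qars, Wars, Eprs and the scaffold genes. Any other gene was named after its values were seen. Alternatives were pseudocounts of 0.1 and 5, no filter and a filter of 5 TPM, quantile normalization, median centring, rescaling without immunoglobulin, mitochondrially encoded and ribosomal protein genes, array weights, no trend, a fit of only the compared groups, leaving out each library, a replicate block, and the second index added as a term or taken alone.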

Additional observations from a re-analysis of the deposited data

Results flagged for a closer look

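In 8 of the 117 sets of 4 libraries that were checked (39 genes in 3 groups at 24 h), 1 library stood apart from the other libraries of its group by Dixon's criterion. Chance gives about 1 in 20. In DECP, Dars was at 180.9 TPM in replicate 2, above the next library at 150.3 TPM. Farsb was at 166.6 TPM in DECP replicate 1, next to 115.4 TPM. Sars was at 119.4 TPM in DECP replicate 1, next to 69.44 TPM. Tars2 was at 10.21 TPM in DECP replicate 1, below the next library at 19.89 TPM. Lars was at 22.64 TPM in DECP replicate 2, below 34.61 TPM, and at 24.34 TPM in DECN replicate 2, below 26.6 TPM. With rapamycin Vars was at 34.01 TPM in replicate 2, below 44.68 TPM, and Aimp2 at 17.39 TPM in replicate 3, below 43.48 TPM.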

How the results depend on the processing

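The number of the 39 genes called at 12 h, 3 as reported, was 0 without a filter, 8 (of 35 tested) with a filter of 5 TPM, 6 with array weights, 0 without the intensity trend and 0 to 1 with a library left out. Over all genes the calls at 12 h, 388 as reported, became 30, 595, 532, 103 and 0 to 91 in that order. At 24 h the 3 calls of DECP against DECN became 1 with quantile normalization, 1 without the trend, 0 in the libraries of either second index alone and 1 to 3 with a library left out. Over all genes the 517 calls became 428 and 182, then 12 and 0 for the 2 indexes, and 273 to 542 with a library left out. The 0 calls of rapamycin against DECP became 1 with a filter of 5 TPM (Hars), 1 with median centring (Hars) and 1 with array weights (Eef1e1), and 0 to 0 with a library left out. Over all genes this comparison had 279 calls as reported, 101 to 278 with a library left out and 0 to 359 in the other settings. Rapamycin against DECN gave 0 in all settings. Of all genes 167 passed there as reported, 32 to 168 with a library left out and 0 to 213 in the other settings. The time difference gave 0 to 1 (Eef1e1) with a library left out, where 68 to 138 of all genes passed. The cause of these changes was not tested, except that fits of a single index hold fewer libraries. With the replicate number as a block the count was 0 at 12 h, where 0 of all genes passed, and 2 at 24 h (Hars and Kars), where 344 of all genes passed. Whether the numbers pair the samples is not known, since the labels do not say. Deviations of same-numbered libraries from their group means correlated at -0.003 to 0.053 in 3 pairs at 12 h and at -0.057 to 0.092 in 12 pairs at 24 h. With 3 or 4 libraries per group such values cannot decide it. Hars at 24 h kept its call in 24 of 26 settings, and no named call changed sign in any. The cytosolic median was 0.70 to 0.83 at 12 h, 0.32 to 0.45 at 24 h and -0.60 to -0.39 for rapamycin against DECP over the alternatives other than left-out libraries.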

Other observations

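Some levels differed between the tables of the 2 times, which were normalized apart, so the values below are only set side by side. Kars had 1061 to 1250 TPM in DECN and 1717 to 2289 TPM in DECP at 12 h, against 67.5 to 82.0 TPM and 106 to 154 TPM at 24 h. Its level ranked between 39 and 113 among all genes in the 12 h libraries and between 946 and 1901 in those of 24 h. The authors' deposited tables give Kars mean normalized counts of 37690 in DECP and 19940 in DECN at 12 h and 1602 and 923.9 at 24 h. Eprs ranked between 305 and 527 at 12 h and between 931 and 2833 at 24 h. Lars2 ranked between 603 and 1144 at 12 h and between 305 and 410 at 24 h.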
